A study of Arabidopsis thaliana with 21 samples.

Results

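The comparison described here set asil1-1 asil2-2 seedlings, which carry mutant alleles of both ASIL1 and ASIL2, against Col-0 seedlings across all genes. Its members were the 3 libraries whose titles name that allele pair and the 3 libraries whose titles name Col-0, 6 of the 21 libraries in the series. All seedlings were Arabidopsis thaliana harvested at 14 days after growth at 22 °C in 16 h of light on MS medium without sucrose, and polyA libraries came from 5 ug of total RNA. Col-0 is the wild type of ecotype Columbia-0 and Ler that of Landsberg erecta. The asil1-1 allele is in Columbia-0 and the asil2-2 allele in Landsberg erecta, so the labels of asil1-1 asil2-2 name both ecotypes. No single wild type matches such a line, and Ler (3 libraries) and the other allele pair asil1-1 asil2-1 (3 libraries, Columbia-0) were therefore used as further comparisons. The submitters describe the 3 libraries of a group as biological replicates. Every comparison with Col-0 uses the same 3 libraries.

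ASIL1 and ASIL2 encode trihelix transcription factors, plant DNA-binding proteins named for a domain of tandem helices that recognises GT-rich promoter elements. ASIL1 is known as a repressor of seed maturation genes in seedlings and was found through its binding to a GT element in a 2S albumin promoter. Seed maturation genes encode storage proteins, oil body proteins and the regulators that drive embryo development, and they are normally silent in vegetative tissue.

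The 6 libraries held 8.41 to 14.63 M counts (M, 1e6) and 20997 to 21767 loci each. Of 19589 genes tested, 6303 (32.2%) differed between asil1-1 asil2-2 and Col-0 at an adjusted p below 0.05 (edgeR quasi-likelihood test, Benjamini-Hochberg adjustment), 3272 higher (16.7%) and 3031 lower (15.5%). Called changes of at least 2-fold made up 9.55% of genes. The CPM of the groups did not overlap at 20.6% of genes for higher and 20.1% for lower levels in the mutant. Against Ler 28.3% of genes were called, against asil1-1 asil2-1 18.1%, and Ler itself differed from Col-0 at 36.1%. Fold change against Col-0 moved with transcript length (Spearman correlation across 19485 genes 0.36, a description of genes that share the same libraries): the median was -0.63 in log2 for transcripts up to 800 nt and 0.36 for those over 4000 nt. Against Ler the correlation was 0.07. The mutant libraries were not alike in this trend. A score of long minus short transcript level was 0.26, -0.51 and 0.49 in asil1-1 asil2-2 replicates 1, 2 and 3. In Col-0 it was -0.77, -0.77 and -1.08. Root marker levels also differed between libraries: the mean centred log2 level of the root list was 1.21, 1.24 and 0.11 in Col-0 replicates 1, 2 and 3, and 0.44, 0.62 and 0.05 in asil1-1 asil2-2. When Col-0 was represented by replicate 3 alone, 1799 genes were called higher and 2143 lower; that lone library is assumed to vary like the other groups, so calls are lost there also where the difference is no smaller.

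ASIL1 transcript was measured at 6.95, 5.17 and 4.86 CPM (counts as a rate of the scaled library total) in the 3 asil1-1 asil2-2 libraries. It stood at 35, 32.6 and 33.3 CPM in Col-0 and at 29.4, 36.0 and 33.6 CPM in Ler. All mutant libraries lay below all 6 wild-type libraries, and the fall against Col-0 was -2.57 ± 0.14 in log2 (± standard error, n = 3 per group, edgeR adjusted p = 1.13e-11). ASIL2 transcript was present at 65.5, 68.5 and 93.7 CPM in asil1-1 asil2-2, against 32.7, 33.2 and 48.5 CPM in Col-0 and 26.8, 33.9 and 34.1 CPM in Ler. The groups did not overlap, and ASIL2 was higher than Col-0 by 0.99 ± 0.20 in log2 (edgeR adjusted p = 0.000687) and higher than Ler by 1.25 (edgeR adjusted p = 7.87e-05). Against Col-0 replicate 3 alone the ASIL2 difference was 0.66 in log2 and did not pass the threshold. In the asil2-2 single mutant ASIL2 averaged 24.4 CPM, so counts over the whole gene do not check the asil2-2 label.

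**Figure D1:**
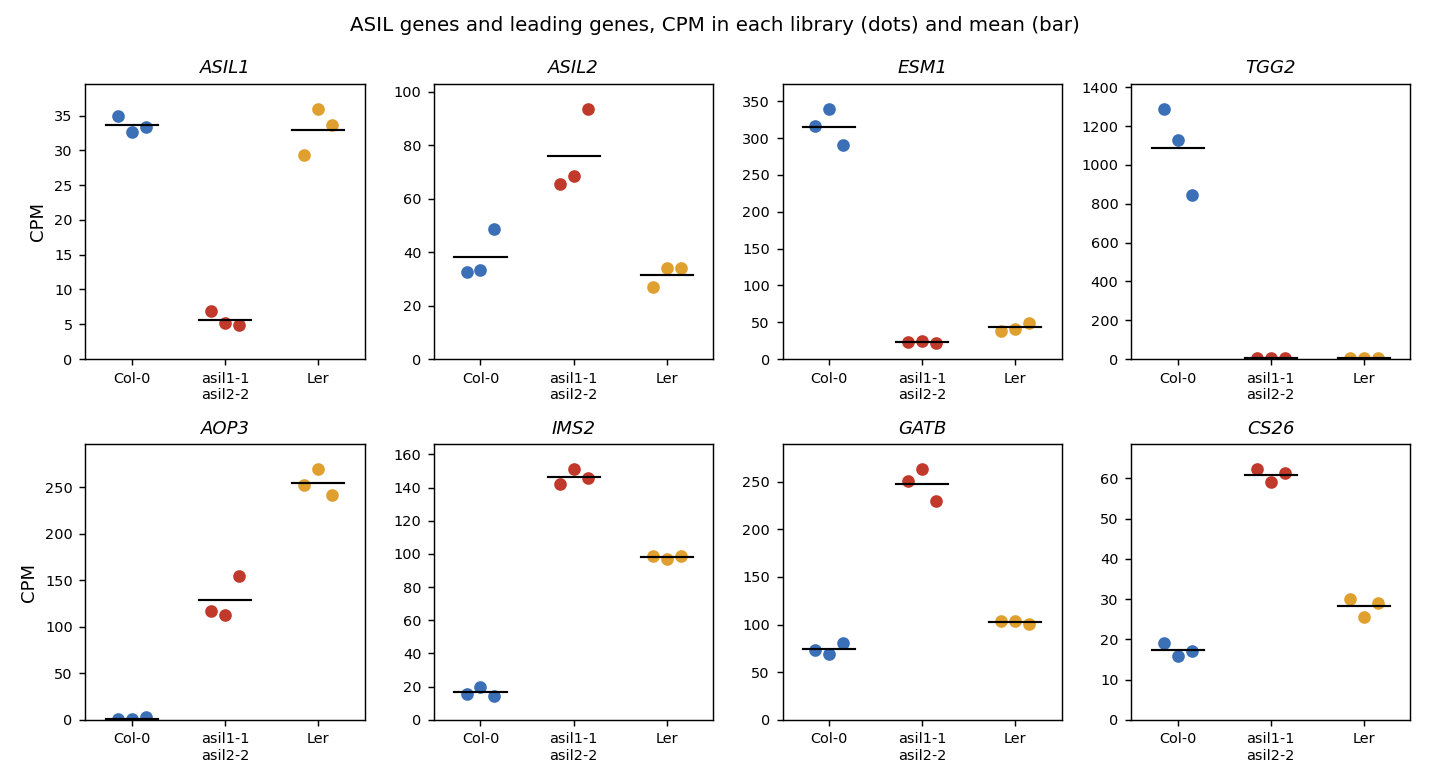
CPM of ASIL1, ASIL2 and 6 leading genes in each Col-0, asil1-1 asil2-2 and Ler library (dots, 3 per group; bars are means; each vertical axis starts at 0). ESM1, TGG2, AOP3 and IMS2 are displaced from Col-0 in the direction of Ler, and of these ESM1 lies below and IMS2 above both wild types. GATB and CS26 are also higher in asil1-1 asil2-2 than in either wild type.

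Several glucosinolate genes with small p-values against Col-0 also separated the wild types from each other. Glucosinolates are sulphur-rich defence compounds of the cabbage family that myrosinases break down after wounding. ESM1, an epithiospecifier modifier that steers breakdown toward isothiocyanates, was at 22.9, 24.0 and 21.1 CPM in asil1-1 asil2-2, 316, 340 and 291 CPM in Col-0, and 38.6, 41.3 and 48.8 CPM in Ler. It fell by 3.80 ± 0.15 in log2 against Col-0 (edgeR adjusted p = 8.61e-14) and by 0.92 against Ler (edgeR adjusted p = 3.47e-05). TGG2, a myrosinase, was at 3.30, 4.50 and 4.27 CPM against 1290, 1130 and 844 CPM in Col-0, while Ler held 5.76, 4.02 and 4.40 CPM. The TGG2 change was -8.07 ± 0.41 in log2 against Col-0 (edgeR adjusted p = 4.83e-10), and the difference from Ler, -0.16, did not pass the threshold (edgeR adjusted p = 0.813). AOP3, which modifies glucosinolate side chains, was at 117, 113 and 155 CPM, against 0.602, 0.661 and 2.71 CPM in Col-0 and 252, 269 and 242 CPM in Ler. It lay between the wild types, 6.59 ± 0.34 in log2 above Col-0 (edgeR adjusted p = 1.55e-10) and 0.99 below Ler (log2 -0.99, edgeR adjusted p = 0.00239). IMS2, a methylthioalkylmalate synthase that lengthens glucosinolate side chains, was at 142, 151 and 146 CPM, against 15.3, 19.7 and 14.6 CPM in Col-0 and 98.9, 96.9 and 98.9 CPM in Ler. It rose by 3.14 ± 0.16 in log2 against Col-0 (edgeR adjusted p = 3.94e-12) and by 0.57 against Ler (edgeR adjusted p = 0.00319). The asil2-2 single mutant averaged 150 CPM of IMS2. ESP, the epithiospecifier protein that directs breakdown toward nitriles, was the reverse case: 10.8, 12.1 and 10 CPM in asil1-1 asil2-2 and 26.4, 24.4 and 23.1 CPM in Col-0, but 1860, 1710 and 1770 CPM in Ler. ESP is the second annotated locus before ASIL1, and ESM1 the fourth after ASIL2.

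Of 26 glucosinolate genes tested, 12 rose and 6 fell against Col-0, beside 16.7% and 15.5% of all genes. Compared with Ler, 10 rose and 7 fell, where 14.8% of all genes were higher and 13.5% lower. In the indole branch, which starts from tryptophan, CYP79B2, CYP79B3, CYP83B1 and MYB51 were higher than in both wild types and the regulator MYB34 was not called in either comparison. CYP79B2, which makes indole-3-acetaldoxime, was at 135, 172 and 251 CPM, against 51.0, 62.9 and 35.9 CPM in Col-0 and 46.4, 45.5 and 32.5 CPM in Ler. The CYP79B2 groups did not overlap, and the log2 differences were 1.89 ± 0.25 (edgeR adjusted p = 2.56e-05) and 2.17 (edgeR adjusted p = 6.26e-06). CYP83B1, the next enzyme, and MYB51, a regulator of the indole branch, were 0.77 and 1.27 above Col-0 in log2 and also passed against Ler, at 1.41 and 1.52. MYB29, a regulator of the aliphatic branch, moved by -1.19 against Col-0 and by 1.17 against Ler, so that it lay between the wild types.

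The ecotype level of each chromosome region was read from 243 marker genes, chosen for differing at least 2-fold between the ecotypes over 12 Columbia-0 and 6 Landsberg erecta libraries, without the asil1-1 asil2-2 libraries. An index set each marker at 0 for the Columbia-0 mean and 1 for the Landsberg erecta mean. On chromosome 1, 64 markers from 3.26 to 30.42 Mb (TAIR10.1) had a median linear index of 0.04, and ASIL1 lies in this stretch. On chromosome 2, 11 markers from 0.08 to 6.51 Mb had a median of 1.00. The same median was found for 5 markers on chromosome 3 from 4.73 to 6.77 Mb, a run that begins with ESM1, and for 7 markers on chromosome 5 from 7.72 to 9.21 Mb, which include IMS2 and TGG2. Most other markers of chromosomes 2 to 5 lay between the wild types, with medians of 0.44 to 0.51 in the runs of 12 or more markers, and the 3 replicates gave medians of 0.46, 0.51 and 0.47 over all 153 intermediate markers. What produces the intermediate level was not tested.

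**Figure D2:**
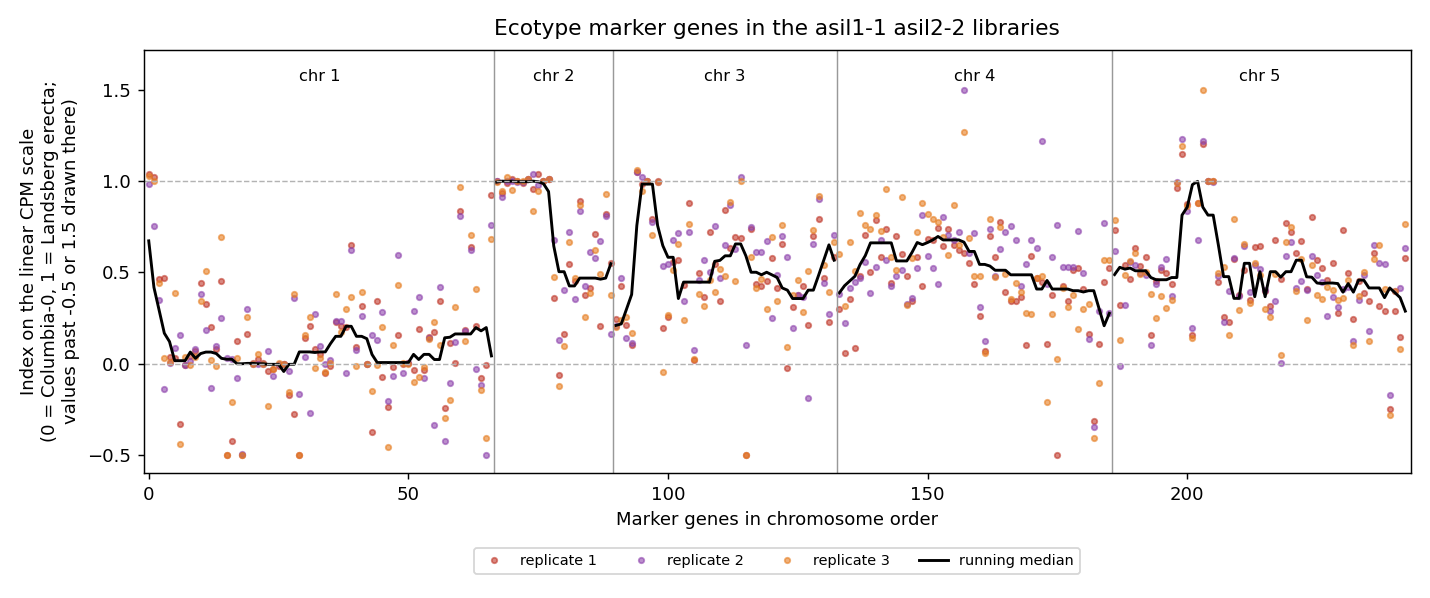
Index of 243 ecotype marker genes in the 3 asil1-1 asil2-2 libraries (coloured dots), in chromosome order, where 0 is the Columbia-0 mean and 1 the Landsberg erecta mean on the linear CPM scale; the line is the running median of 7 markers, and points past -0.5 or 1.5 are drawn at those limits. Most of chromosome 1 lies near 0, the start of chromosome 2 and short runs on chromosomes 3 and 5 lie at 1, and the remainder lies between.

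With limits of 0.25 and 0.75 on that scale, 5113 genes (26.2%) lay in Columbia-level regions, 12480 (64.0%) in intermediate regions and 1892 (9.71%) in Landsberg-level regions. Each gene took the running median of its nearest marker, and its own level was not used. The linear scale and its 3 classes were adopted after the log2 scale had been examined. On the log2 scale 25.4% of genes lay in regions with a running median above 0.5, nearer to Ler than to Col-0. With the markers left out, at least 2-fold calls against Col-0 made up 7.81%, 9.04% and 11.9% of the genes in the 3 classes. Against Ler they made up 10.6%, 7.99% and 6.37%. Over all genes, markers included, the shares were 9.55% against Col-0 and 9.35% against Ler. The 2 orders run opposite ways, while Ler differed from Col-0 at a like 12.2%, 12.1% and 12.2% of genes, markers included. These shares are a description. Columbia-level regions also held genes called against Col-0, GATB and ELP2 on chromosome 1 among them. CS26 was classed there too, by a running median of 0.21. Its run on chromosome 3 held only 2 markers, at 0.22 and 0.38, so its class is uncertain. Reads of Landsberg erecta alleles can count low where they differ from the Columbia reference, and the part of this in any single gene was not tested.

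Differences from both wild types in the same direction were called for 2074 genes (10.6%), 1274 higher (6.50%) and 800 lower (4.08%). GATB, a subunit of the organellar glutamyl-tRNA amidotransferase, was at 251, 263 and 230 CPM in asil1-1 asil2-2, 73.2, 69.6 and 80.4 CPM in Col-0, and 104, 104 and 101 CPM in Ler. Its mutant libraries lay above all wild-type libraries, by 1.74 ± 0.09 in log2 over Col-0 (edgeR adjusted p = 8.25e-12) and 1.27 over Ler (edgeR adjusted p = 4.79e-10), and the asil1-1 asil2-1 libraries were at 249, 276 and 240 CPM. CS26, a plastid enzyme of the cysteine synthase family, was at 62.2, 59.0 and 61.4 CPM, against 19.1, 15.8 and 17.1 CPM in Col-0 and 29.9, 25.6 and 29.1 CPM in Ler. ELP2, a subunit of the Elongator complex, was at 39.9, 37.0 and 45.0 CPM against 16.0 to 17.0 CPM in Col-0 and 18.1 to 18.9 CPM in Ler. FER2, a ferritin known from seeds, was at 4.68, 8.50 and 5.89 CPM while every wild-type library held at most 1.30 CPM, a log2 difference of 2.82 from Col-0 (edgeR adjusted p = 2.36e-06). In the other direction SYP31, a syntaxin of the Golgi, was at 0.757, 0.554 and 1.18 CPM against 6.5, 9.16 and 10.8 CPM in Col-0 and 4.52, 4.42 and 5.96 CPM in Ler, -3.42 in log2 from Col-0 (edgeR adjusted p = 5.58e-09).

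Seed maturation genes, the known targets of ASIL1, were near the limit of detection in every group. Of 22 genes on the list, 16 had a count in some library and 3 passed the filter on low counts. The summed level of the list was 3.14 to 4.42 CPM in asil1-1 asil2-2, 2.82 to 5.29 CPM in Col-0 and 2.34 to 3.88 CPM in Ler, ranges that overlap. The cruciferin gene CRC and the 2S albumin gene SESA2 had no count in any of these 9 libraries. HSFA9, a heat shock factor of maturing seeds, was called lower than Col-0, with no count in asil1-1 asil2-2 and 1.44, 0.283 and 0.217 CPM in Col-0, at least 9.58-fold when 3 counts are put in the mutant group in total. Without Col-0 replicate 1 the bound was 3.70-fold and the call was lost, as it was with Col-0 replicate 3 alone, and Ler, at 0, 0 and 0.0746 CPM, did not pass against the mutant (edgeR adjusted p = 0.568). No rise against Col-0 was called among the 3 tested members, and the members below the filter were not tested. Among 17 repressors of the embryonic programme 1 was higher and 1 lower than Col-0, beside 16.7% and 15.5% of all genes, with a median log2 of 0.07. The higher one, EMF1, at 35.7, 23.3 and 42.8 CPM, overlapped the 23.3 to 25.1 CPM of Col-0. It lost its call in 5 of the 6 fits that left out 1 Col-0 or mutant library. Without asil1-1 asil2-2 replicate 2, 4 members were higher, in a fit that called 3763 genes higher in place of 3272.

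Nuclear photosynthesis genes were lower in asil1-1 asil2-2. Of 32 tested, 26 fell and none rose against Col-0 (median log2 -0.94, against 0.02 over all genes tested), beside 15.5% of all genes lower. Compared with Ler, 24 fell and none rose (median -0.50), beside 13.5% of all genes lower. Their summed level was 63800 to 75200 CPM in the mutant, 108000 to 136000 CPM in Col-0 and 91300 to 100000 CPM in Ler, with no overlap. PSBR, a photosystem II subunit, was at 2070, 2250 and 1730 CPM, against 6580, 6660 and 9530 CPM in Col-0 and 2160, 2660 and 2640 CPM in Ler. It fell by 1.91 ± 0.20 in log2 against Col-0 (edgeR adjusted p = 5.13e-07), and -0.30 against Ler did not pass (edgeR adjusted p = 0.266). LHCA1, a light-harvesting protein of photosystem I, was at 1490, 1850 and 1270 CPM, below both Col-0 (4590, 4080 and 5450 CPM) and Ler (2280, 2600 and 2780 CPM), and passed both tests (log2 -1.61 and -0.73). Many of these transcripts are short. With the length trend removed, 24 of 32 were still lower than Col-0 (median -0.64). Against asil1-1 asil2-1, where 8.88% of genes were higher and 9.23% lower, 2 of the 32 were higher and none lower. In whole seedlings fewer cells of a type and less RNA per cell cannot be told apart.

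Genes of abscisic acid, cold and water deficit were also lower. Of 20 tested, 12 fell and none rose against Col-0 (median log2 -0.83), beside 15.5% of all genes lower. Compared with Ler, 16 fell and none rose (median -1.43), beside 13.5% of all genes lower. KIN2, a cold-induced protein, was at 5.58, 9.98 and 4.12 CPM, against 86.0, 116 and 77.9 CPM in Col-0 and 39.4, 41.1 and 47.0 CPM in Ler, log2 -3.81 from Col-0 (edgeR adjusted p = 2.91e-06). RD29A, which responds to cold and drought, was at 7.92, 10.7 and 7.59 CPM, against 46.1, 64.1 and 38.2 CPM in Col-0 and 41.6, 54.8 and 70 CPM in Ler. The RD29A groups did not overlap, with a log2 change of -2.50 ± 0.46 against Col-0 (edgeR adjusted p = 0.000704) and -2.67 against Ler. COR15A, a chloroplast protein of freezing tolerance, was at 1.51, 0.924 and 0.884 CPM, below all Col-0 (8.18, 18.1 and 3.36 CPM) and Ler (6.54, 4.99 and 4.92 CPM) libraries. The cold regulators CBF1, CBF2 and DREB1A, neighbouring near-identical genes whose reads may be shared, changed by -4.66, -2.32 and -2.41 in log2 at levels under 9 CPM. The phosphatases ABI1, ABI2 and HAB1, negative regulators of abscisic acid signalling, were within 0.12 of Col-0 in log2 and not called. The list member PP2CA, also a phosphatase, was called lower than Col-0. Against asil1-1 asil2-1, 11 of the 20 were lower and none higher, beside 9.23% and 8.88% of all genes.

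**Figure D3:**
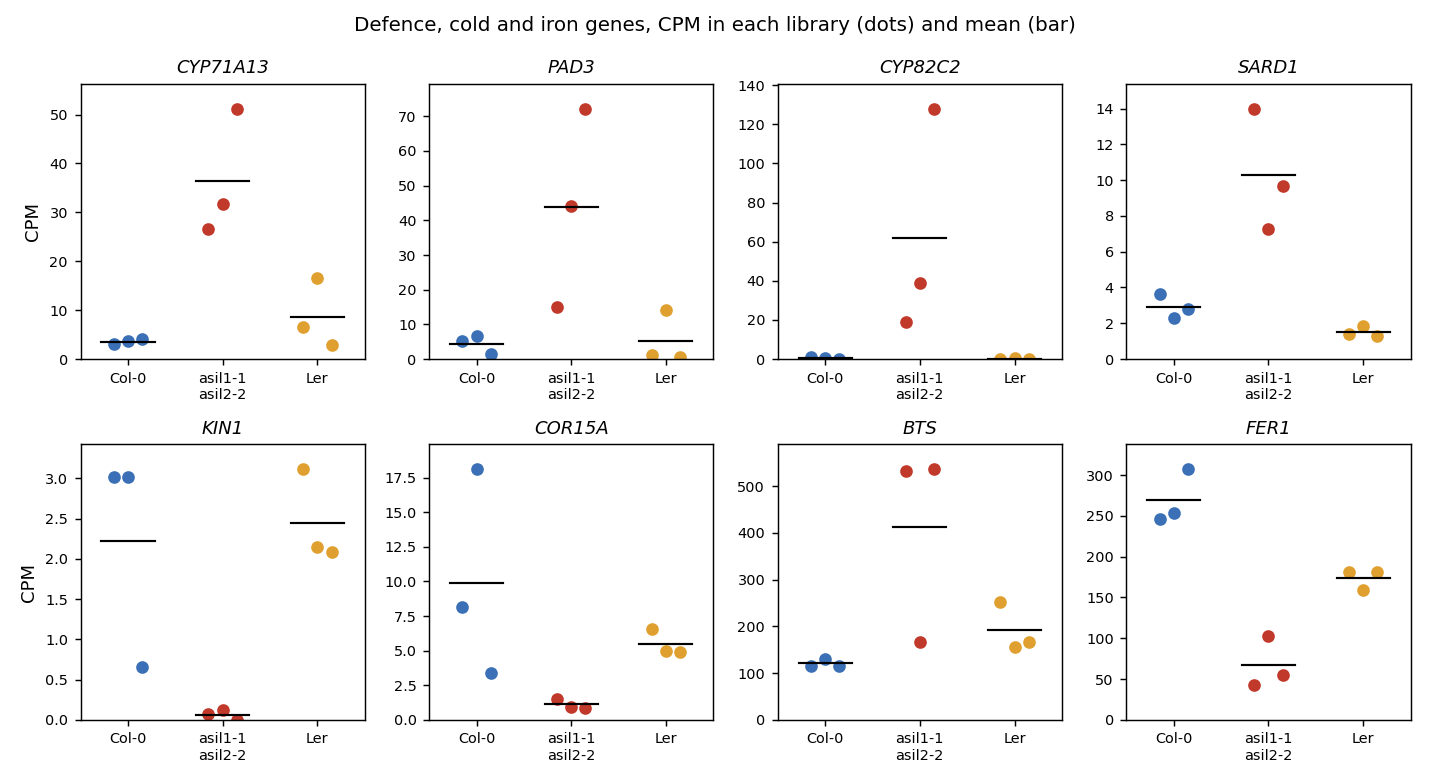
CPM of 4 defence genes (upper row), 2 cold genes and 2 iron genes (lower row) in each library (dots, 3 per group; bars are means; each vertical axis starts at 0). For the iron gene BTS the second asil1-1 asil2-2 library lies near Col-0 at 166 CPM while the other libraries of that group are at 533 and 536 CPM.

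Genes of salicylate signalling and camalexin synthesis were higher. Of 22 tested, 10 rose and none fell against Col-0 (median log2 0.93), beside 16.7% of all genes higher. Compared with Ler, 13 rose and none fell (median 1.19), beside 14.8% of all genes higher. The count against Col-0 was 4 without asil1-1 asil2-2 replicate 1 and 5 with Col-0 replicate 3 alone, while the median stayed at 0.84 and 0.96. CYP71A13, an enzyme of camalexin synthesis, was at 26.5, 31.7 and 51.2 CPM, against 3.01, 3.59 and 4.12 CPM in Col-0 and 6.54, 16.6 and 2.83 CPM in Ler. It rose by 3.34 ± 0.55 in log2 against Col-0 (edgeR adjusted p = 0.000262) and by 1.97 against Ler (edgeR adjusted p = 0.0052). PAD3, which completes camalexin, spread more, at 15.1, 44.1 and 72.2 CPM against 5.29, 6.61 and 1.41 CPM in Col-0 and 1.25, 14.1 and 0.671 CPM in Ler. Its log2 difference of 3.29 ± 1.04 passed (edgeR adjusted p = 0.026). The call was lost without asil1-1 asil2-2 replicate 3 (log2 2.73), without Col-0 replicate 1, 2 or 3 (3.41, 3.73 and 2.87), and against Col-0 replicate 3 alone (4.96), with the direction kept. SARD1, a regulator of salicylate synthesis, was at 14.0, 7.27 and 9.65 CPM, above all wild-type libraries, which held at most 3.61 CPM. PR1, the usual marker of the salicylate response, was at 16.4, 10.9 and 15.2 CPM against 1.08, 0.567 and 0.217 CPM in Col-0, yet Ler replicate 2 held 9.44 CPM and the call was missed (edgeR adjusted p = 0.0659). CYP82C2, a cytochrome P450 of indole defence compounds, was at 18.8, 38.9 and 128 CPM against at most 0.842 CPM in any wild-type library, 6.93 ± 0.73 in log2 over Col-0 (edgeR adjusted p = 3.7e-06).

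Among 19 NLR immune receptors, long genes that detect pathogen effectors, 9 rose and 3 fell against Col-0, beside 16.7% and 15.5% of all genes. Relative to Ler 11 rose and none fell, beside 14.8% and 13.5% of all genes. With the length trend removed, 6 were higher and 7 lower than Col-0, so no direction of the list against Col-0 is given. DAR4, a member of the list, was at 27.9, 23.8 and 38.6 CPM, below the 43.2 to 44.6 CPM of Col-0, and at most 0.467 CPM in Ler.

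Of 16 iron genes tested, 8 rose and 1 fell against Col-0 (median log2 0.86), beside 16.7% and 15.5% of all genes. Relative to Ler 9 rose and 3 fell, beside 14.8% and 13.5% of all genes. BTS, an E3 ligase that restrains the iron deficiency response, was at 533, 166 and 536 CPM, against 116, 130 and 116 CPM in Col-0 and 252, 156 and 167 CPM in Ler (log2 1.77 ± 0.35 against Col-0, edgeR adjusted p = 0.00106). BHLH100, a transcription factor of iron deficiency, was at 27.7, 2.77 and 25.5 CPM against at most 1.42 CPM in Col-0, and OPT3, an iron transporter of the phloem, at 445, 177 and 444 CPM against 164 to 186 CPM in Col-0. FER1, the leaf ferritin that stores iron, fell, at 42.2, 103 and 54.9 CPM against 246, 254 and 307 CPM in Col-0 (log2 -2.01 ± 0.46, edgeR adjusted p = 0.00401). Replicate 2 was the mutant library closest to the Col-0 mean in all 9 called members and in 13 of the 16 tested. The share of all genes at which replicate 2 was the closest was not counted. FER2, a ferritin outside the list, was farthest from Col-0 in that library. The score of long minus short transcripts was also closest to Col-0 in replicate 2, so its difference from the other mutant libraries is not limited to iron genes. The root uptake genes IRT1 and FRO2 were not called (log2 -0.08 and 0.26). The number of members higher than Col-0 was 4 without asil1-1 asil2-2 replicate 3 (median 0.71) and 4 with Col-0 replicate 3 alone (median 0.95).

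Of 15 genes of ribosome biogenesis and the RNA polymerases, 7 rose and none fell against Col-0, beside 16.7% and 15.5% of all genes. Relative to Ler 5 rose and 1 fell, beside 14.8% and 13.5% of all genes. PWP2, a ribosomal RNA processing factor, was at 62.4, 57.5 and 66.5 CPM against 21.1, 26.1 and 19.8 CPM in Col-0 and 26.9, 25.1 and 26.6 CPM in Ler (log2 1.47 ± 0.11 against Col-0, edgeR adjusted p = 3.41e-09). NRPA1 and NRPA2, the largest subunits of RNA polymerase I, and NRPC2 of RNA polymerase III were 0.95, 0.80 and 0.99 higher in log2. With the length trend removed the count was 4.

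By their medians the flavonoid and jasmonate lists both lay between the wild types, the flavonoid list below Col-0 and the jasmonate list above it. The counts below are to be read against 16.7% of all genes higher and 15.5% lower than Col-0. For Ler these shares were 14.8% and 13.5%. Of 15 flavonoid genes 7 fell and 1 rose against Col-0 (median -0.96). In the test against Ler 3 rose, a count near the share of all genes, and none fell (median 0.51). With Col-0 replicate 3 alone the median against Col-0 was -0.35. Of 19 genes of jasmonate and wounding 6 rose and 1 fell against Col-0 but 1 rose and 5 fell against Ler, and the medians were 0.35 and -0.32. None was higher with Col-0 replicate 3 alone, at a median of 0.55, and 2 were higher without asil1-1 asil2-2 replicate 3, at a median of 0.15. VSP2, a storage protein induced by jasmonate, was at 6.81, 8.13 and 15.2 CPM, against 107, 125 and 83.1 CPM in Col-0 and 27.4, 17.7 and 8.50 CPM in Ler, so that it overlapped Ler only. Of 17 clock genes 2 rose and 7 fell against Col-0 (median -0.32), and 3 rose and 7 fell against Ler (median -0.20). CCA1, a morning regulator, was at 73.0, 63.2 and 80.4 CPM against 140 to 147 CPM in Col-0 and 38.1 to 66.2 CPM in Ler. Of 17 auxin and brassinosteroid genes 5 fell and none rose against Col-0, 7 fell and none rose against Ler, and CPD, a brassinosteroid synthesis enzyme, was at 142, 122 and 132 CPM, below all Col-0 (238 to 345 CPM) and Ler (201 to 269 CPM) libraries.

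**Figure D4:**
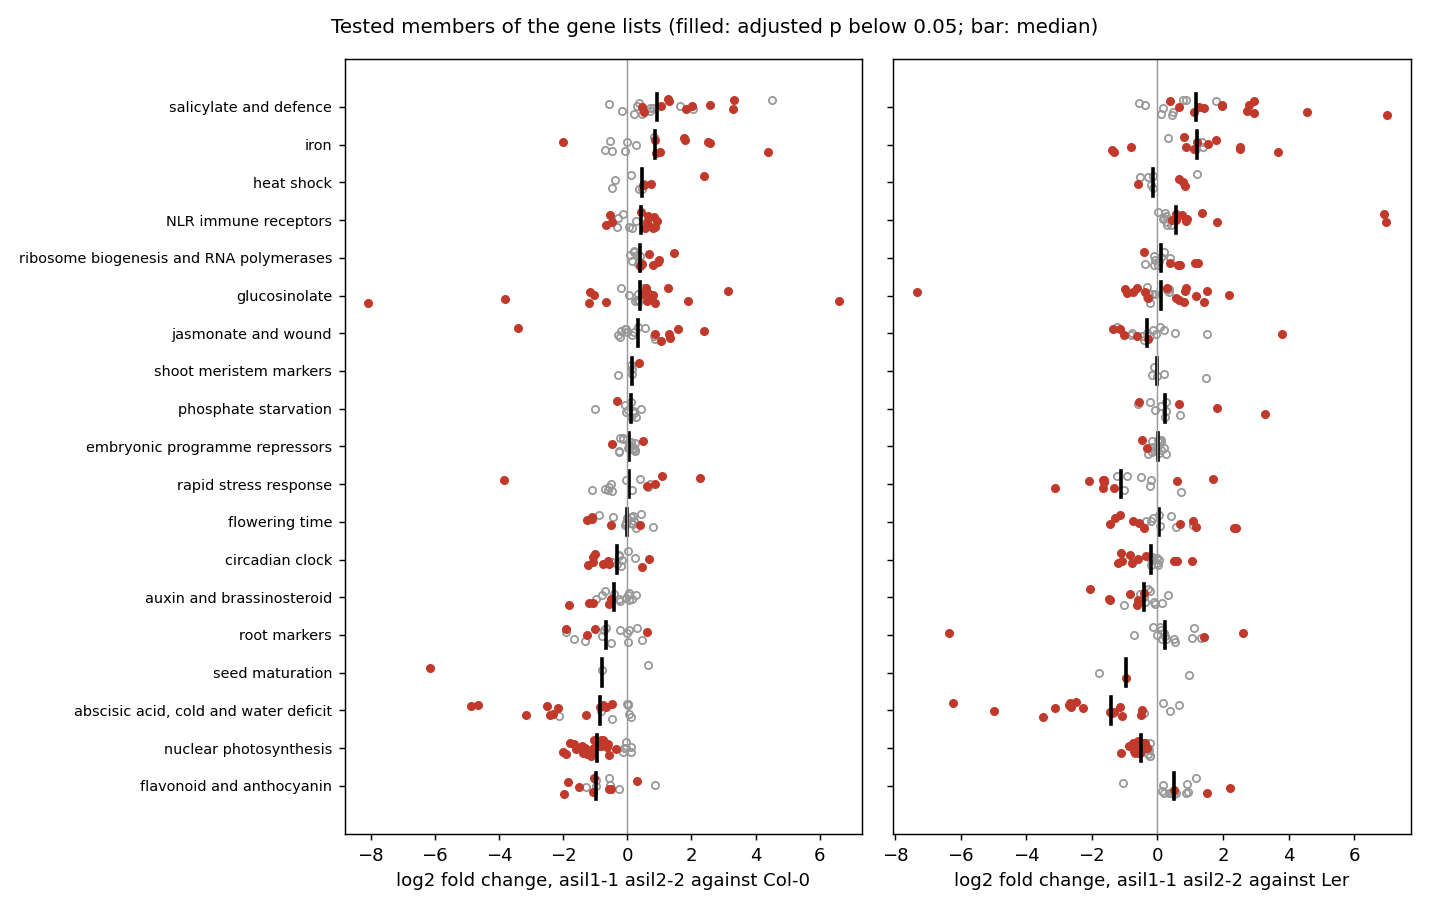
Log2 fold change of every tested member of 19 gene lists in asil1-1 asil2-2 against Col-0 (left) and Ler (right); filled points passed an adjusted p of 0.05 and bars are list medians. Photosynthesis and cold lists lie left of 0 in both panels (medians -0.94 and -0.83 against Col-0), and the flavonoid list changes side.

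The remaining lists are given as counts, to be read against the 16.7% of all genes that were higher and the 15.5% that were lower than Col-0. Against Col-0, 4 of 10 heat shock genes rose and none fell, 4 of 16 rapid stress genes rose and 1 fell, 1 of 19 flowering genes rose and 4 fell, 1 of 12 phosphate starvation genes fell, 1 of 17 root markers rose and 3 fell, and 1 of 5 shoot meristem markers rose. Without asil1-1 asil2-2 replicate 3, 2 heat shock genes and 2 rapid stress genes were higher. With Col-0 replicate 3 alone the median log2 of the rapid stress genes changed side, to -0.49 from 0.06. That of the heat shock genes was 0.33, against 0.48. The root markers lower than Col-0 numbered 1 without asil1-1 asil2-2 replicate 1 or 3 and 0 with Col-0 replicate 3 alone. Rapid stress genes were lower than in Ler at 7 of 16 and higher at 2, beside 13.5% and 14.8% of all genes. They were lower than in asil1-1 asil2-1 at 11 of 16 and higher at 1, beside 9.23% and 8.88% of all genes.

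Upstream sequence was searched in the 250 bases before the annotated start of 19480 tested genes (RefSeq, TAIR10.1), on both strands, for GTGATT, the core of the GT element bound by ASIL1, CCGAC, the C-repeat core bound by CBF proteins, and ACGTG, the core of the abscisic acid response element. GTGATT was present in 15.7% of all windows, 15.7% of those of genes higher than Col-0, 15.5% of those lower, and 16.8% and 16.2% of those higher and lower than both wild types. CCGAC was present in 12.8% of all windows, 13.0% of higher and 12.1% of lower ones, and ACGTG in 23.6%, 23.5% and 24.5%. Among the 20 cold list genes 4 held CCGAC (20%) and 11 held ACGTG (55.0%), and among the 12 of them lower than Col-0 the counts were 3 and 6. Of 36 named genes higher than both wild types 6 held GTGATT, and the 3 with the smallest p against Col-0, IMS2, GATB and CS26, held none.

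Upstream stretches are printed to show what a match looks like. GATB is printed as a leading gene higher than both wild types that has no match. The other stretches were selected after the search, because they hold a match and lie outside annotated genes, and an earlier selection that also included CS26, PWP2 and KIN2 was changed when those held none of the motif sought. They say nothing of how common the motif is, which the shares above give. Capitals mark GTGATT or its reverse complement AATCAC in ELP2, NRPA1 and CYP71A13, and CCGAC or its reverse complement GTCGG in COR15A and RD29A. The windows are chr1:17939800-17940049 (plus strand) for GATB, chr1:18337521-18337770 (minus) for ELP2, chr3:21353247-21353496 (plus) for NRPA1, chr2:13111989-13112238 (minus) for CYP71A13, chr2:17712331-17712580 (minus) for COR15A and chr5:21240467-21240716 (plus) for RD29A, each written 5′ to 3′ on the strand of its gene. They are Columbia reference sequence, and the alleles of the libraries were not read.
GATB: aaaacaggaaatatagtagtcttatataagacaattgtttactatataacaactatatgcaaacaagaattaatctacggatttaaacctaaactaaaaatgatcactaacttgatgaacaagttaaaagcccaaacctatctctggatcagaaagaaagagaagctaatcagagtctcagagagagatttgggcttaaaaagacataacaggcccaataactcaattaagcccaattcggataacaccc
ELP2: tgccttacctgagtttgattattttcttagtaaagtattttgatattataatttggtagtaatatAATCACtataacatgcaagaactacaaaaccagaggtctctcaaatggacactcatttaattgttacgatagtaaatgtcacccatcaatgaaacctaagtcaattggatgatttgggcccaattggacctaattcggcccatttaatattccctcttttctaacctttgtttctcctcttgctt
NRPA1: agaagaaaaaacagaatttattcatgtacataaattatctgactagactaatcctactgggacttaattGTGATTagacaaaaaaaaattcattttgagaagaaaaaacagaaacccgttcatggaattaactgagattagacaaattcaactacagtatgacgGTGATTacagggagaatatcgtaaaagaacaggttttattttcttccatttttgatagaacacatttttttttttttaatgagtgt
CYP71A13: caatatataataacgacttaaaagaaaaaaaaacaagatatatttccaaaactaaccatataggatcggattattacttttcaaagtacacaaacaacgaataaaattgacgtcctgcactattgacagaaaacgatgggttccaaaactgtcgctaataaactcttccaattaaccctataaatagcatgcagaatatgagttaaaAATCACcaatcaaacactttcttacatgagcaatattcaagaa
COR15A: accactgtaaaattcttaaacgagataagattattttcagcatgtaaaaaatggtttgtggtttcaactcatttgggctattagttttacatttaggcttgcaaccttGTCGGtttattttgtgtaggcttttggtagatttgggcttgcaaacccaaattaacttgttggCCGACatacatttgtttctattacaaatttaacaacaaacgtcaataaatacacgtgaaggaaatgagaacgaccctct
RD29A: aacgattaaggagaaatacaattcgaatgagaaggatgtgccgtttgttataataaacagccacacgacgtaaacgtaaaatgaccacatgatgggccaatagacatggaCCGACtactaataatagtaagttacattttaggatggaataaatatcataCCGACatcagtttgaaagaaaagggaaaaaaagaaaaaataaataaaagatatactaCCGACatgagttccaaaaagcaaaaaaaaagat

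Among called genes with a symbol, 6 had no count in Col-0 and 3 none in asil1-1 asil2-2. PHT1;2, a phosphate transporter with a near-identical neighbour, had no count in Col-0 and was at least 14.3-fold higher in asil1-1 asil2-2. Ler held 1.25, 0.431 and 0.522 CPM of PHT1;2, and the mutant did not pass against Ler (edgeR adjusted p = 0.138). Ler itself was called above Col-0 for this gene (edgeR adjusted p = 0.00696). PAB5, a poly(A)-binding protein of reproductive tissue, had no count in Col-0 and was at least 12-fold higher in asil1-1 asil2-2. PAB5 also passed against Ler (log2 1.80, edgeR adjusted p = 0.0124). CYP712A2 had no count in asil1-1 asil2-2 and was at least 20.1-fold lower, each bound with 3 counts put in the empty group in total. Col-0 held 2.53, 1.23 and 0.325 CPM of CYP712A2, the bound without Col-0 replicate 1 was 11.5-fold, the call was lost with Col-0 replicate 3 alone, and the difference from Ler did not pass the threshold (edgeR adjusted p = 0.268).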

How the data were processed

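The authors deposited raw read counts, 1 transcript model standing for each locus. The TAIR10 genome, Bowtie 0.12.7 and edgeR 3.0.8 appear in the list of builds and tools, per the submitters' processing notes. How strand and multiply mapping reads were handled is not given in the sources used, so near-identical and overlapping genes are uncertain. Loci were named from the TAIR10.1 gene table (23867 of 24100 matched). The counts of all 21 libraries entered edgeR 4.0.16 (R 4.3.3) with 7 group means and 14 residual degrees of freedom: filterByExpr kept 19589 genes and removed 4511, TMM scaling and robust quasi-likelihood tests followed, and standard errors came from the F statistic. The comparison was also tested on simulated data of 19260 genes. There 76% of 100 changes of 1 in log2 and 97% of 100 changes of 2 were recovered, and 4.42% of calls were false. Far fewer genes were changed than the 32.2% called here, so recovery at that share was not tested. Genes were called against both wild types when both tests passed in the same direction.

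The gene lists (353 members, 345 listed in the files), the named-gene rule and the tests were chosen with earlier results of these data known. The rule names ASIL1 and ASIL2, the 8 called genes with the smallest p and the 6 with the largest fold per direction among genes whose groups do not overlap, the 8 with the largest fold per direction against both wild types, up to 4 per direction without counts in 1 group, up to 5 members per list and 4 ecotype markers. Other genes in the text were chosen after their values were seen: those given as uncalled or contrasting members of a list. Length correction subtracted a lowess trend (span 0.3) per library, and the index used a running median of 7 markers. Alternatives were DESeq2 1.42.0, RLE scaling, other filters, a replicate block, single libraries left out, Col-0 replicate 3 alone, a root covariate and length correction. One upstream stretch and 1 list member are not reported here. Standard errors reflect the spread between libraries, and lower bounds of folds cover counting error only.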

Additional observations from a re-analysis of the deposited data

Results flagged for a closer look

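Results that differed between the lines carrying different asil2 alleles were picked out by testing asil1-1 asil2-2 directly against asil1-1 asil2-1 (edgeR quasi-likelihood test), which equals the difference of their effects against the shared Col-0 libraries. Higher in asil1-1 asil2-2 were 1740 genes and lower 1809. The asil1-1 asil2-1 line is in Columbia-0 alone, so allele and ecotype cannot be told apart here. Among the named leading genes the log2 differences were 7.94 for CYP82C2, 7.81 for AOP3, 4.39 for DES1, 4.11 for IMS2, 4.11 for AOX1D, 3.78 for ABCG40, 3.56 for UGT71B5 and 3.08 for RLP39. In the other direction they were -6.96 for TGG2, -4.49 for SEP4, -3.97 for ESM1, -2.78 for PP2-B10 and -2.31 for CYP72A11.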

How the results depend on the processing

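Counts against Col-0 stayed within 1.5 times of 3272 higher and 3031 lower under RLE scaling (3006 and 3238), DESeq2 (3028 and 3300), both filters, and with the length trend removed (2970 and 2828), although 73.3% of the original calls were then kept. Col-0 replicate 3 alone gave 1799 higher, and 835 in place of 1274 higher than both wild types, keeping 54.6% of calls. Fitting the compared groups only gave 1072 in place of 1809 lower than asil1-1 asil2-1. Leaving out single libraries gave 2365 to 3763 higher and 2252 to 3079 lower than Col-0, 2249 to 2933 and 1854 to 2531 than Ler, 1122 to 1556 and 1196 to 1609 than asil1-1 asil2-1, and 880 to 1574 and 471 to 852 than both wild types, with 471 reached without asil1-1 asil2-2 replicate 3. The share of genes in regions whose markers lay nearer to Ler, 25.4%, was 30.5% and 29.1% with medians of 5 and 11 markers. It was 30.7% and 20.1% with pseudocounts of 0.1 and 1 CPM, and 32.8% on the linear scale. CASP2 reversed with Col-0 replicate 3 alone, to 0.07 in log2; the cause was not tested.

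With the replicate number as a block, counts were 3261 higher and 3067 lower than Col-0. Same-numbered libraries correlated at 0.02, 0.13 and 0.12 with Col-0 and at 0.05, 0.16 and 0.07 with Ler. With asil1-1 asil2-1 they correlated at -0.04, -0.27 and -0.02. The same number gave the highest or tied highest value throughout Ler and for replicates 2 and 3 with Col-0. Replicate 1 correlated best with Col-0 replicate 3 (0.04), and with asil1-1 asil2-1 the same number was never highest. As the groups differed in this, the numbers were not taken to pair the samples. The linear index, its class limits and the combined length and root correction (2968 higher, 3021 lower) were chosen after seeing the data. The filter on low counts leaves 3 seed maturation genes tested.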
